A study of Mus musculus with 6 samples.

Results

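The IL-1 and IL-18 receptor genes lie side by side on mouse chromosome 1, in the order Il1r2, Il1r1, Il1rl2, Il1rl1, Il18r1 and Il18rap. The cluster was taken as the window from 40125001 to 40612000 in mm9 coordinates, which spans 487 kb. All 6 genes of the cluster are described, and the window makes up 487 of 2638957 bins of 1 kb on chromosomes 1 to 19 and X. The rule that sets the window and the genes uses positions and names only.

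Ezh2 binding had been measured by chromatin immunoprecipitation and sequencing (ChIP-seq) in helper T cells grown from naive CD4 T cells of the spleen of C57BL/6 mice, with no age given. All cultures received antibodies to the T cell receptor and CD28 for 2 days and IL-2 at 15 ng/ml, and lasted 5 days. Th1 cultures were given IL-12 at 10 ng/ml and an antibody to IL-4, and Th2 cultures IL-4 at 100 ng/ml and an antibody to IFN-γ. Each cell type gave 1 library from a polyclonal antibody to Ezh2, 1 from a control rabbit IgG and 1 of input DNA. No expression was measured, so the cell types rest on the labels and could not be checked against marker genes.

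Ezh2 is the enzyme of a Polycomb complex, PRC2, which places methyl groups on lysine 27 of histone H3 at genes that are kept silent. The receptors of the cluster belong to the IL-1 receptor family, whose members signal through an intracellular TIR domain once a binding chain has joined an accessory chain. Il1rl1 encodes ST2, the receptor for IL-33, which is typical of Th2 cells. Il18r1 and Il18rap encode the binding and the accessory chain of the receptor for IL-18, which acts together with IL-12 on Th1 cells. Il1r1 encodes the signalling receptor for IL-1, Il1r2 a decoy receptor that takes up IL-1 without signalling, and Il1rl2 the receptor for the IL-36 cytokines.

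The files carry positions and no gene names, and an mm9 gene annotation was not used here. The genes were therefore placed approximately, from general knowledge of the mm9 map and in whole kb, all on the plus strand. A gene's block means this placed extent: 40142001 to 40182000 for Il1r2, 40282001 to 40374000 for Il1r1, 40381001 to 40424000 for Il1rl2, 40486001 to 40522000 for Il1rl1, 40522001 to 40558000 for Il18r1 and 40572001 to 40609000 for Il18rap. A statement about a gene is a statement about its block. RefSeq's gene table for GRCm38.p6 lists the 6 genes in this order, with no other protein-coding gene between them, Map4k4 before Il1r2 and Slc9a4 after Il18rap.

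Promoters are shown for the Th2 receptor and the Th1 receptors that the comparison turns on, and for the second start of Il1r1, a start inside the gene. Each is the 250 bases before a start site on the plus strand, from RefSeq with the build GRCm38.p6, and the capitals mark CG pairs.
Il18r1, first start: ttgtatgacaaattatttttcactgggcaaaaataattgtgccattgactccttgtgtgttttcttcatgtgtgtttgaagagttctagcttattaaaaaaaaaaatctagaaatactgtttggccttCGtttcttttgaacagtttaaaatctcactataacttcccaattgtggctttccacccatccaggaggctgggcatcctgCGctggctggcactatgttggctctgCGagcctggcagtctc
Il1rl1, first start: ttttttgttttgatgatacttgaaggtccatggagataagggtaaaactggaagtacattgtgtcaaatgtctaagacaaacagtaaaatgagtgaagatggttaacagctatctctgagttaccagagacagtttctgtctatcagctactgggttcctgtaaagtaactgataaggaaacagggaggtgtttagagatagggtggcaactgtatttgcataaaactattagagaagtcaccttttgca
Il18rap: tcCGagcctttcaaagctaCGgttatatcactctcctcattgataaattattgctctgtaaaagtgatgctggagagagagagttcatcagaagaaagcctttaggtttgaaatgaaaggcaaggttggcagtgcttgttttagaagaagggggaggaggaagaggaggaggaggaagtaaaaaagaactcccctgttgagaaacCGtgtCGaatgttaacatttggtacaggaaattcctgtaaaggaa
Il1r1, second start: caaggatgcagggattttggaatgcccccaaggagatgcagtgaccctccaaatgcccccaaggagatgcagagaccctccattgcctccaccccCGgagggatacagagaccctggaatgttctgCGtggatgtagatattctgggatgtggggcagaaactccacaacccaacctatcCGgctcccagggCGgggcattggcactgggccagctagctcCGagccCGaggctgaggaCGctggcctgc

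Polycomb proteins are found above all at promoters rich in CG pairs. Over the 300 bases from 250 before to 50 after a start, the table's 32841 promoters held a median of 7 CG pairs. All 6 genes matched, with 10 promoters. The highest counts were 16 at Il1r2 and 14 at the second start of Il1r1, with fewer in 67.0% and 63.7% of all promoters. The 3 starts of Il18r1 had 5, 7 and 8, Il18rap had 4, Il1rl2 had 3, and the first start of Il1rl1 had 1, with fewer in only 5.42% of all promoters. Fewer CG pairs than at the 3 starts of Il18r1 were found in 38.0%, 47.9% and 51.3% of all promoters, so this receptor, with the most Ezh2 positions per kb of the 6 blocks in Th2, was near the middle of the table.

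The letters of binding motifs for the factors of Th1 and Th2 cells were searched on both strands, each motif on its own. TCACACCT, a T-box motif such as that of T-bet, was in 0 of the 10 promoters and in 1.28% of all promoters. AGATAA, a motif of GATA factors such as GATA3, was at both starts of Il1rl1 and at no other of the 10, against 11.2% of all promoters. TTCNNNGAA, the motif of STAT factors, was at Il1r2 and at the third start of Il18r1, against 8.30%. A match of letters is a description of the sequence and not a site of binding.

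The files list each distinct interval once with its number of reads, and a distinct interval is called a position here. Over chromosomes 1 to 19 and X, 10809666 positions were found for Ezh2 in Th1 and 14963599 for Ezh2 in Th2. The inputs held 15578675 and 12862628, and the Th1 control antibody 9326717. For the Th2 control antibody no chromosome 1 was at hand, so the cluster was not analysed in that library. Reads per position lay between 1.28 and 2.24 in the 5 libraries over the cluster. The fold over input is the share of a pull-down's positions in a stretch divided by the share of the input's positions in it, with a 95% exact (Clopper-Pearson) interval that covers counting error only. With 1 library per group, no spread between replicates could be measured. Tests compare these libraries and not the cell types, and since the 2 Ezh2 files are marked with different sequencing runs, run and cell type cannot be told apart. A pull-down from many cells also cannot tell fewer cells with Ezh2 from less Ezh2 in each cell.

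The first comparison asked whether Ezh2 was enriched over input along the cluster. Over the whole window the Ezh2 library held 2864 positions in Th1 against 4091 in its input, and 4521 in Th2 against 3013 in its input. Ezh2 was thus 1.01-fold over input in Th1 (95% interval 0.962 to 1.06), while in Th2 it was 1.29-fold (1.23 to 1.35). The Th1 control antibody, with 2140 positions, was 0.874-fold over the same input (0.829 to 0.921). The average over the window was thus below 2-fold in both Ezh2 libraries. Among all 5031 windows of this length with at least 2 input positions per kb, the median was 0.915-fold in Th2, and 90.8% lay below the cluster. In Th1 the median was 0.907-fold, and 65.5% lay below it.

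The excess in Th2 relative to Th1 was not seen in the stretches beside the cluster. In the 487 kb before it, Ezh2 was 1.20-fold over input in Th1 and 1.18-fold in Th2. In the 487 kb after it, the values were 1.15-fold in both. The fold of the cluster lay below both flanks in Th1, at 1.01, and above both in Th2, at 1.29. The fold in Th2 relative to Th1 was 0.985 (95% interval 0.925 to 1.05) before the cluster, 1.28 (1.20 to 1.37) in it and 0.999 (0.931 to 1.07) after it. Of the 5031 windows of the same length, 6 had a larger excess in Th2. The Th1 input relative to the Th2 input was 1.12 in the cluster (1.07 to 1.18), 1.05 before it and 1.11 after it (1.05 to 1.17). For the Ezh2 positions alone, Th1 relative to Th2 was 0.877 in the cluster (0.837 to 0.919), but 1.07 and 1.11 in the flanks.

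**Figure D1:**
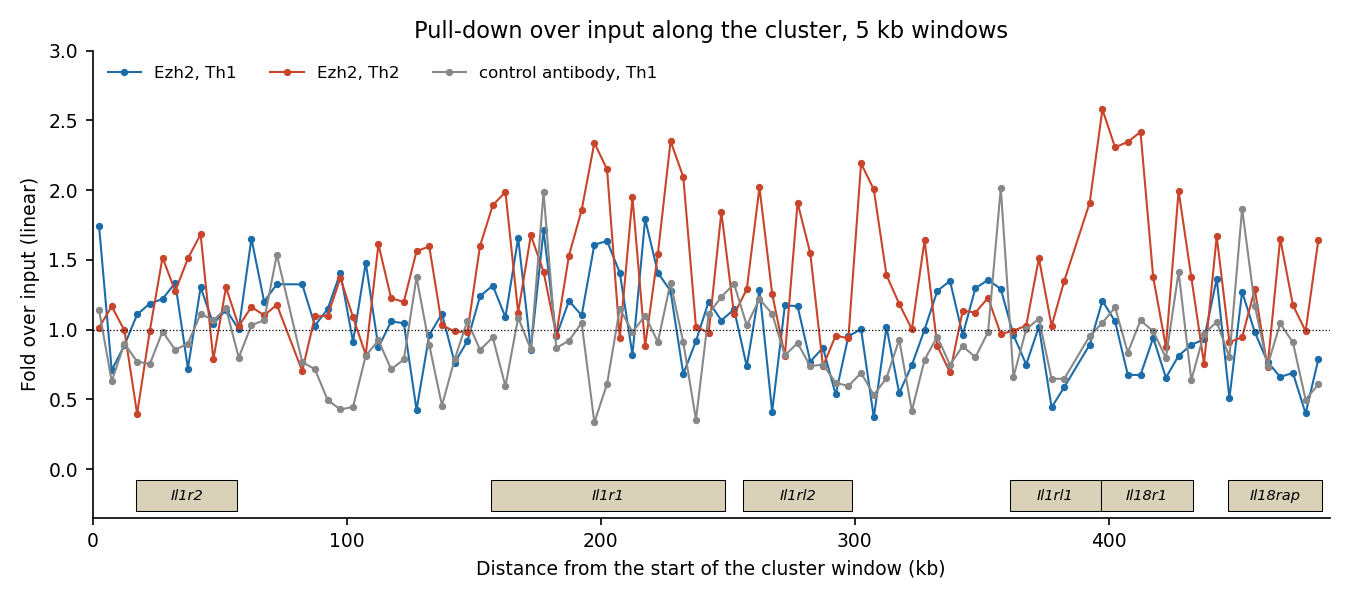
Fold over input (linear axis) of Ezh2 in Th1 (blue), Ezh2 in Th2 (red) and the control antibody in Th1 (grey) in windows of 5 kb, against the distance in kb from the start of the cluster window, with 1 library per line and the placed genes as boxes. The red line has its highest point, 2.58-fold, at the start of Il18r1 and lies between 2.31-fold and 2.58-fold in 4 neighbouring windows there, where the blue line lies between 0.675-fold and 1.21-fold. Windows with under 40 positions are left out.

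Single bins of 1 kb were seldom called. A bin was tested with at least 10 positions over both libraries, by a one-sided exact binomial test adjusted over the whole genome (Benjamini-Hochberg), and called at an adjusted p below 0.05 and at least 2-fold after adding 0.5 to each count. In Th1, 1 of 398 tested bins of the cluster was called (89 were not tested), where the whole genome gave 0.992%. In Th2, 4 of 394 were called (93 were not tested), where the genome gave 1.21%. Both shares were near or below the background, so the count of called bins does not set the cluster apart. With all reads counted instead of positions, 4.29% of the tested bins were called in Th1 and 14.0% in Th2, but this setting called 3.83% and 5.83% of the genome's bins and 1.06% with the control antibody. With background scaling, the cluster gave 4.52% and 6.35%, against 3.999% and 3.59% in the genome. The Th1 control antibody gave 0 of 371, where the genome gave 0.00151%.

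The 5 called bins fell at Il1r1, at Il18r1 and between genes. The bin called in Th1 was 40326001 to 40327000 in the Il1r1 block, with 16 Ezh2 and 4 input positions. In Th2, the bins 40320001 to 40321000 and 40324001 to 40325000 of the same block held 24 and 27 Ezh2 against 3 and 5 input positions. The bin 40530001 to 40531000 in the Il18r1 block held 30 Ezh2 and 6 input positions in Th2, against 7 and 13 in Th1. The fourth bin called in Th2, 40218001 to 40219000, lay between Il1r2 and Il1r1 and rested on 1 input position against 19 of Ezh2.

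Il1r2, the decoy receptor, had similar values in both cell types. Its block held 266 Ezh2 and 340 input positions in Th1, 388 and 286 in Th2, and 187 of the control antibody. Ezh2 was 1.13-fold over input in Th1 (95% interval 0.957 to 1.33), while in Th2 it was 1.17-fold (0.998 to 1.36), a ratio of Th2 to Th1 of 1.03 (0.824 to 1.30). Scaled Ezh2 positions were higher in Th2 in 20 of its 40 bins and higher in Th1 in the other 20. With scaling by all positions both intervals held 1, and the ratio's interval reached from 0.824 to 1.30. The median over all windows of this length was 0.882-fold in Th1 and 0.880-fold in Th2, and 80.3% and 84.2% lay below the block. In the 5 kb around the placed start the order was turned, at 1.11-fold in Th1 (0.715 to 1.71), while in Th2 it was 0.395-fold (0.230 to 0.660), on 40 and 23 Ezh2 positions. This window did not pass the genome-wide test of Th1 against Th2 that is described with Il18r1 (conditional exact test, adjusted p = 0.349). Il1r2 was the only one of the 6 blocks whose interval for the ratio of Th2 to Th1 held 1.

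Il1r1, the signalling IL-1 receptor, was the block with the highest fold in Th1. It held 679 Ezh2 and 800 input positions in Th1, 957 and 524 in Th2, and 438 of the control antibody. Ezh2 was 1.22-fold over input in Th1 (1.10 to 1.36), while in Th2 it was 1.57-fold (1.41 to 1.75), while the control antibody was 0.915-fold (0.812 to 1.03). The blocks of both Ezh2 libraries thus lay above input, and 95.8% of the windows of this length lay below the Th2 value. The ratio of Th2 to Th1 was 1.28 (1.10 to 1.49), and the inputs moved with it: the Th1 input relative to the Th2 input was 1.26 (1.13 to 1.41), and for the Ezh2 positions alone Th1 relative to Th2 was 0.982 (0.889 to 1.08). With each Ezh2 library set against the input of the other cell type, the ratio of Th1 to Th2 turned to 1.24.

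The windows of 5 kb in the Il1r1 block ran from 0.683-fold to 1.79-fold in Th1 and from 0.883-fold to 2.35-fold in Th2. The highest in Th1, 40340001 to 40345000, was 0.883-fold in Th2. The highest in Th2, 40350001 to 40355000, was 1.28-fold in Th1, so the highest windows of 5 kb were not the same. Of the windows of 10 kb at Il1r1, 40320001 to 40330000 was the highest in both libraries. It was 1.62-fold over input in Th1 and 2.25-fold in Th2, where the next values were 1.59-fold and 2.23-fold. In the window from 40320001 to 40325000 there were 67 Ezh2 positions in Th1 and 98 in Th2, 1.61-fold and 2.34-fold over input, and in the next 5 kb 59 and 80, 1.64-fold and 2.15-fold. The control antibody stood at 0.334-fold and 0.610-fold over input in these windows. All 3 called bins of Il1r1 lay here, 38, 42 and 44 kb into the block. RefSeq lists a second start of Il1r1, the promoter printed above, 41.5 kb after its first start on GRCm38.p6. These distances are on different builds and are only set side by side. In the 5 kb around the placed first start, Ezh2 was 1.32-fold over input in Th1 (0.845 to 2.04), while in Th2 it was 1.89-fold (1.16 to 3.17).

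Scaled by all positions, Il1rl2, the IL-36 receptor, was near input level in both libraries. Its block held 235 Ezh2 and 390 input positions in Th1, 335 Ezh2 positions in Th2, and 189 of the control antibody. Ezh2 was 0.868-fold over input in Th1 (0.735 to 1.02), while in Th2 it was 1.12-fold (0.953 to 1.33). Of all windows of this length, 47.8% lay below the Th1 value and 81.5% below the Th2 value. The ratio of Th2 to Th1 was 1.30 (1.02 to 1.64), yet Th1 relative to Th2 was 0.971 for the Ezh2 positions alone (0.818 to 1.15) and 1.26 for the inputs (1.07 to 1.48). With the input of the other cell type, the ratio of Th1 to Th2 turned to 1.22. With background scaling the folds were 1.24 (1.05 to 1.46) in Th1 and 1.58 (1.34 to 1.87) in Th2.

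Il1rl1, the IL-33 receptor of Th2 cells, did not have more Ezh2 in Th1. Its block held 169 Ezh2 and 312 input positions in Th1, 308 and 196 in Th2, and 158 of the control antibody. Ezh2 was 0.781-fold over input in Th1 (0.643 to 0.944), while in Th2 it was 1.35-fold (1.13 to 1.62), a ratio of Th2 to Th1 of 1.73 (1.32 to 2.26). The difference therefore ran toward Th2. In Th1 the control antibody was 0.846-fold (0.694 to 1.03), and its interval overlapped that of Ezh2. The median over all windows of this length was 0.883-fold for Ezh2 in Th1 and 1.01-fold for the control antibody. Of these windows, 30.9% and 12.5% lay below the block. The inputs also differed, at 1.31 for Th1 relative to Th2 (1.10 to 1.58). For the Ezh2 positions alone, Th1 relative to Th2 was 0.760 (0.626 to 0.919), so a smaller difference was present without the inputs. With the input of the other cell type the ratio was 0.998. This value follows from the 2 ratios before it and is no separate check. The part of the inputs in the difference at Il1rl1 was not tested.

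The fold in Th2 was higher in the part of Il1rl1 next to Il18r1, where some bins were nearly empty in every library used. In its first 18 kb, Ezh2 was 0.813-fold over input in Th1 (0.634 to 1.04), while in Th2 it was 1.12-fold (0.889 to 1.42), and in its last 18 kb 0.732-fold (0.532 to 0.999) and 1.80-fold (1.33 to 2.45). From the first to the last 18 kb, the Ezh2 positions of Th2 went from 6.31 to 5.12 per kb and 10000000 positions. The Th2 input went from 5.61 to 2.85, and both averages take in the nearly empty bins. After these bins, the window from 40515001 to 40520000 held 60 Ezh2 and 27 input positions in Th2, 1.91-fold over input (1.19 to 3.13). The Th1 input was 1.55 times the Th2 input in the last 18 kb (1.14 to 2.12). Around the placed start of Il1rl1, in 5 kb where Ezh2 had 38 positions in Th1 against 47 in Th2, the values were 1.19-fold (0.754 to 1.87) and 1.15-fold (0.729 to 1.84). With scaling by all positions, 2-fold over input thus lay outside both counting intervals at this placed start. Over the whole cluster, background scaling raised the folds to 1.44 in Th1 and 1.81 in Th2. An enrichment of 2-fold at the start is therefore not excluded under other scalings.

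Il18r1, the binding chain of the IL-18 receptor, had the most Ezh2 in Th2. Scaled by all positions, its Ezh2 in Th1 was not above input. Its block held 206 Ezh2 and 349 input positions in Th1, 544 and 252 in Th2, and 203 of the control antibody. Per kb and 10000000 positions of the library, this was 5.29 in the Th1 Ezh2 library, 10.1 in the Th2 Ezh2 library, 6.22 and 5.44 in the inputs and 6.05 with the control antibody. The Th2 Ezh2 library stood above the other 4, which lay close together. Ezh2 was 0.851-fold over input in Th1 (0.713 to 1.01), while in Th2 it was 1.86-fold (1.60 to 2.16), and the control antibody 0.972-fold (0.813 to 1.16). Among all windows of this length, 44.2% lay below the Th1 value and 97.4% below the Th2 value, with medians of 0.883-fold and 0.879-fold. With background scaling the folds were 1.21 (1.02 to 1.45) in Th1 and 2.61 (2.24 to 3.04) in Th2.

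The ratio of Th2 to Th1 at Il18r1 was 2.18 (1.73 to 2.76), the highest of the 6 blocks. Of 67371 windows of this length in the genome, 11 had a larger excess in Th2. For the Ezh2 positions alone, Th1 relative to Th2 was 0.524 (0.444 to 0.616), and for the inputs 1.14 (0.970 to 1.35). With the input of the other cell type, Th1 relative to Th2 was 0.599. The excess in Th2 at Il18r1 was therefore present without the inputs. The value with the inputs exchanged follows from the ratios of the Ezh2 positions alone and of the inputs, and is no separate check. The rest of the cluster, without this block, had a ratio of Th2 to Th1 of 1.21 (1.13 to 1.30).

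**Figure D2:**
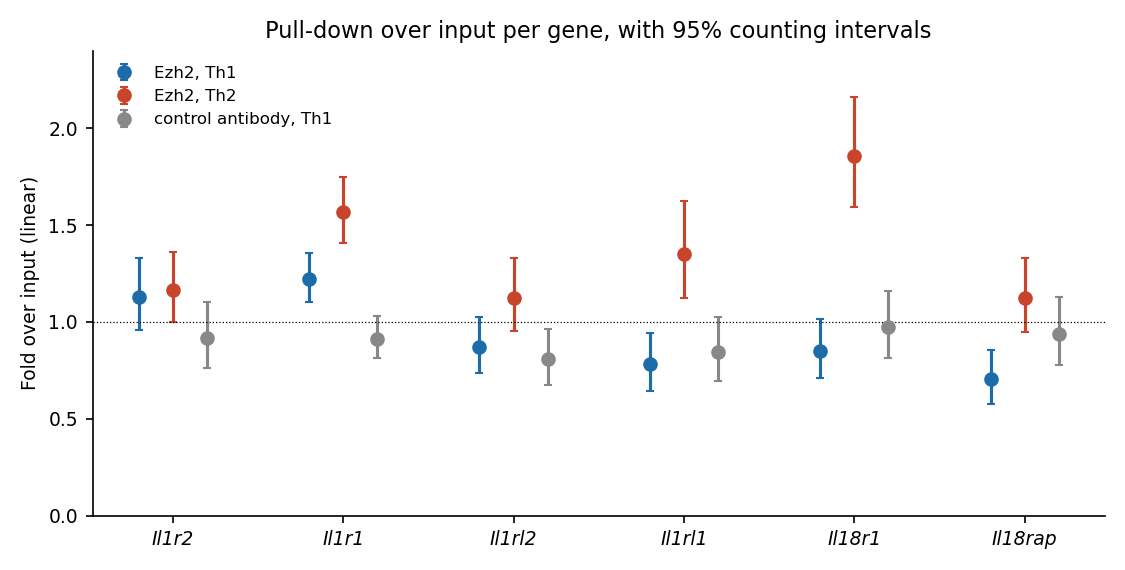
Fold over input (linear axis from 0) for each of the 6 placed genes, with points for Ezh2 in Th1 (blue), Ezh2 in Th2 (red) and the control antibody in Th1 (grey), 1 library each, and bars for 95% exact intervals of counting error. Il18r1 has the highest point, 1.86-fold in Th2 against 0.851-fold in Th1, and only at Il1r2 do the Th1 and Th2 points nearly coincide.

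The Ezh2 positions of Th2 were densest over the beginning of Il18r1. In the first 18 kb of the block there were 112 in Th1 and 338 in Th2, 0.868-fold (0.680 to 1.10) and 2.31-fold (1.87 to 2.85) over input, and in the last 18 kb 94 and 206, 0.831-fold (0.638 to 1.08) and 1.41-fold (1.12 to 1.77). The fold in Th2 was higher in the first part, while that in Th1 was at the same level in both. Scaled by library, Th2 had more Ezh2 positions in 17 of the 18 bins of the first part, and more input positions in 7. A bin of this part held between 9 and 34 Ezh2 positions in Th2 (median 17) and between 0 and 13 in Th1 (median 6.5).

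The stretch formed an unbroken run from 40520001 to 40540000. Its 4 windows of 5 kb held 84, 102, 101 and 90 Ezh2 positions in Th2, which were 2.58-fold, 2.31-fold, 2.35-fold and 2.42-fold over input. In Th1 they held 36, 36, 30 and 22, which were 1.21-fold, 1.06-fold, 0.676-fold and 0.675-fold. The control antibody was between 0.835-fold and 1.16-fold in these windows. The first window holds the placed start of Il18r1 and also the end of the Il1rl1 block. In the window before it, 40515001 to 40520000, Ezh2 was 0.892-fold over input in Th1 and 1.91-fold in Th2. Of the 95 windows of 5 kb measured in the cluster, 11 were at least 2-fold over input in Th2, against 3.61% in the genome, and 0 in Th1, against 3.06%. These 11 comprised 4 at Il18r1, 4 at Il1r1, 1 at Il1rl2 and 2 between Il1rl2 and Il1rl1. Runs of at least 4 such windows held 0.818% of the genome's windows in Th2 and 0.618% in Th1, and the run at Il18r1 was the only one in the cluster.

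**Figure D3:**
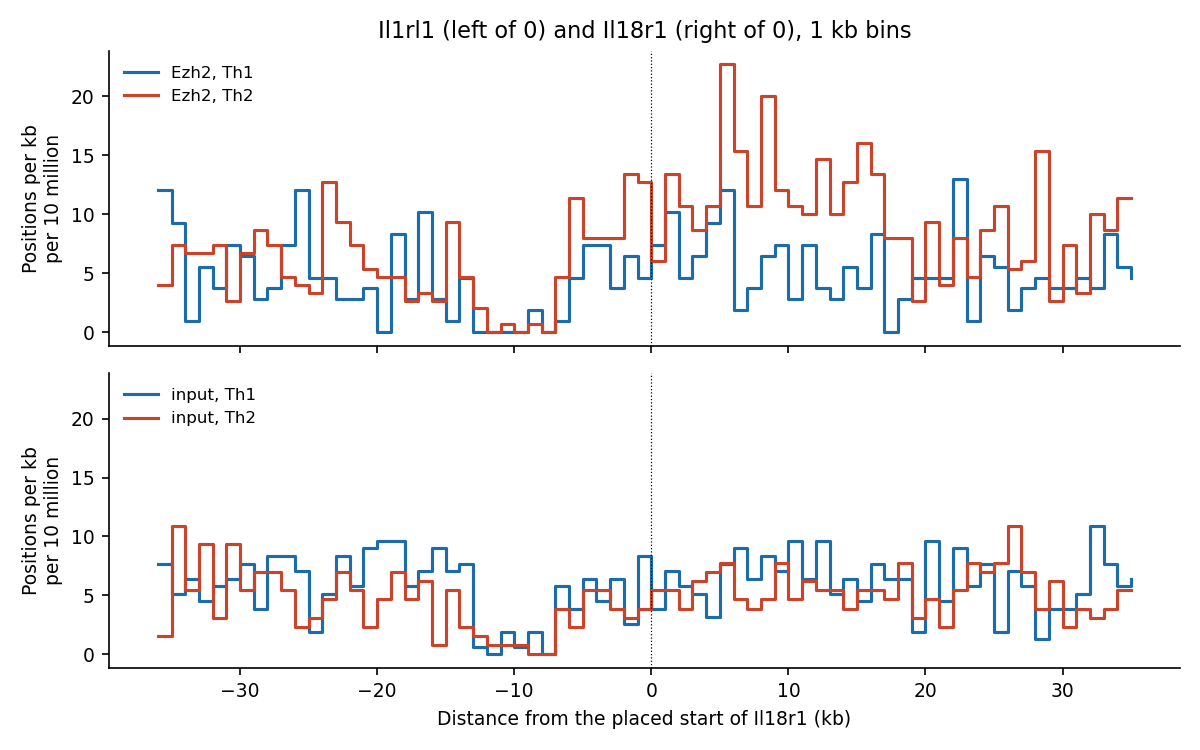
Positions per kb and per 10000000 positions of the library (linear axis) in bins of 1 kb for the Ezh2 libraries (top) and the inputs (bottom) of Th1 (blue) and Th2 (red), against the distance in kb from the placed start of Il18r1, with Il1rl1 to the left of 0. Right of 0 the red Ezh2 line lies above the blue one in 30 of 36 bins, while the input lines cross.

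The second comparison tested the fold over input of Th1 against that of Th2 in windows of 10 kb over the whole genome. A two-sided conditional exact test used positions from all 4 Ezh2 and input libraries, given the library totals, for windows with at least 40 positions over the 4 libraries. Over all 247667 windows, 0.0291% were called at an adjusted p below 0.05, 33 (0.0133%) higher in Th1 and 39 (0.0157%) higher in Th2. In the cluster 1 of 48 windows was called, from 40530001 to 40540000 inside the Il18r1 block. It held 52 Ezh2 and 111 input positions in Th1, 191 and 69 in Th2, and 62 of the control antibody. Ezh2 was 0.675-fold over input in Th1 (0.476 to 0.947), while in Th2 it was 2.38-fold (1.80 to 3.18), and the control antibody 0.933-fold (0.672 to 1.28). The fold was 3.52 times higher in Th2 (2.24 to 5.54, conditional exact test, adjusted p = 0.000149), and 5 windows of the genome had a smaller p.

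The other windows of the cluster did not pass. The window before it, 40520001 to 40530000, with 72 and 186 Ezh2 positions, was 1.13-fold over input in Th1 and 2.42-fold in Th2 (conditional exact test, adjusted p = 0.168). Between Il1rl2 and Il1rl1, the window from 40430001 to 40440000 was 0.620-fold in Th1 and 1.66-fold in Th2 (conditional exact test, adjusted p = 0.063). For the Ezh2 positions alone, by a two-sided exact binomial test, 3 windows passed, and all 3 were higher in Th2: 40430001 to 40440000, 1.85-fold (adjusted p = 0.0435), 40520001 to 40530000, 1.87-fold (adjusted p = 0.0022), and 40530001 to 40540000, 2.65-fold (adjusted p = 5.32e-08). By that test 0.659% of the genome's windows passed. Without adjustment, 14 of the 48 windows had a conditional exact p below 0.05, of which 13 were higher in Th2, against 8.21% of all windows. These 13 were spread over all 6 genes and the space between, with 3 at Il18r1 and 2 each at Il1r1, Il1rl1 and Il18rap. In windows of 5 kb the conditional exact test called 1 of 95 in the cluster, 40430001 to 40435000 between Il1rl2 and Il1rl1, which was higher in Th2. Of all such windows 0.00495% were called, 0.0028% higher in Th1 and 0.00215% higher in Th2. Ezh2 had 17 positions there in Th1 against 63 in Th2, and the Th1 input was 2.02 times the Th2 input.

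**Figure D4:**
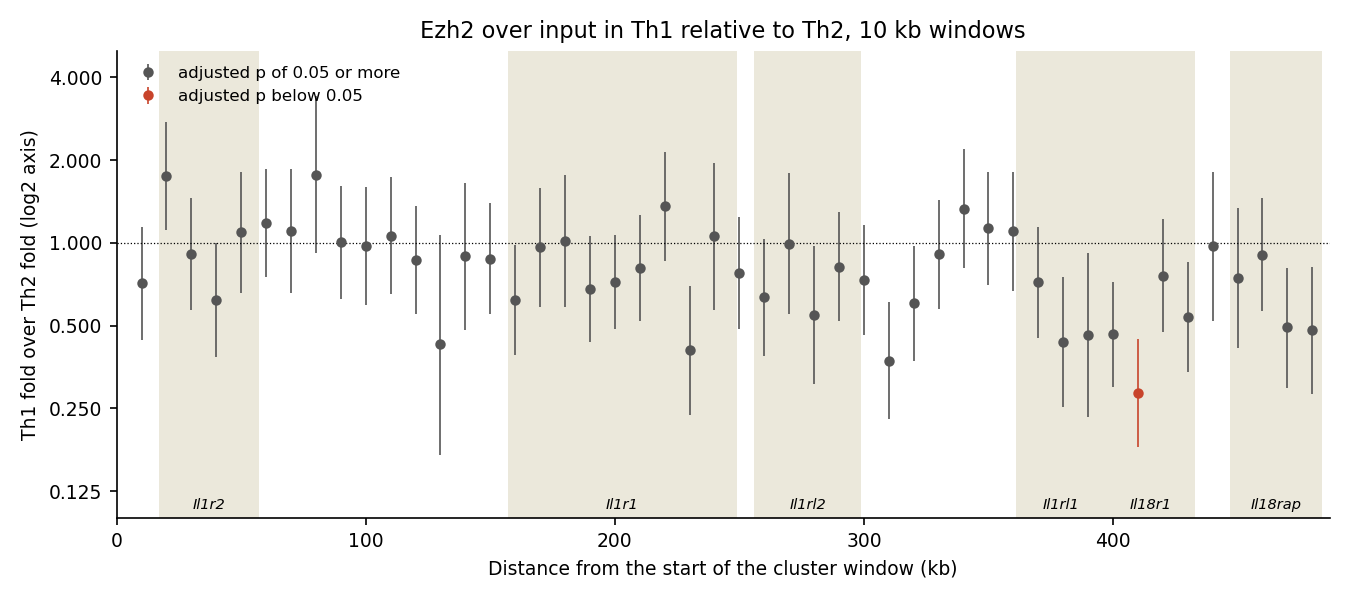
Fold over input in Th1 divided by that in Th2 (log2 axis) for the 48 windows of 10 kb in the cluster, against the distance in kb from the start of the cluster window, with bars for 95% conditional exact intervals and shading for the placed genes. The red point in Il18r1, at 0.284, is the window with an adjusted p below 0.05. Of the 48 points, 35 (72.9%) lie below 1, against 50.8% of all windows of the genome.

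Il18rap, the accessory chain of the IL-18 receptor, had less Ezh2 than Il18r1 in Th2. Its block held 156 Ezh2 and 319 input positions in Th1, 317 and 243 in Th2, and 179 of the control antibody. Ezh2 was 0.705-fold over input in Th1 (0.578 to 0.856), while in Th2 it was 1.12-fold (0.946 to 1.33), and the control antibody 0.937-fold (0.776 to 1.13). The Th1 value was the lowest of the 6 blocks. The Th2 interval held 1 with scaling by all positions, but not with background scaling (1.33 to 1.87). Among all windows of this length, 16.6% lay below the Th1 value and 81.0% below the Th2 value. The ratio of Th2 to Th1 was 1.59 (1.22 to 2.07), with 0.681 for Th1 relative to Th2 in the Ezh2 positions alone (0.559 to 0.828) and 1.08 in the inputs (0.914 to 1.29).

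The ratio of Th2 to Th1 at Il18rap was higher in its last part, but the intervals of the parts overlapped. In its first 18 kb Ezh2 was 0.831-fold over input in Th1 and 0.922-fold in Th2, a ratio of Th2 to Th1 of 1.11 (0.754 to 1.64). In its last 19 kb the folds were 0.610 and 1.33, a ratio of Th2 to Th1 of 2.17 (1.51 to 3.14). For the Ezh2 positions alone, Th1 relative to Th2 was 0.828 (0.619 to 1.10) and 0.576 (0.436 to 0.756). Around its placed start the values were 0.507-fold in Th1 and 0.910-fold in Th2, on 19 and 36 Ezh2 positions, a ratio of 1.79 (0.842 to 3.86). The start of Il18rap thus did not have the enrichment that the start of Il18r1 had in Th2, 2.58-fold (1.66 to 4.11).

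The Th2 receptor and the Th1 receptors were also set against each other within each library, where depth and pull-down are shared. In Th2, the fold at Il18r1 was 1.37 times that at Il1rl1 (95% conditional exact interval 1.08 to 1.75) and 1.65 times that at Il18rap (1.31 to 2.08). Il18rap was 0.830 times Il1rl1 (0.645 to 1.07). In Th1, Il18r1 was 1.09 times Il1rl1 (0.838 to 1.42), Il18rap 0.903 times Il1rl1 (0.684 to 1.19), and Il18r1 1.21 times Il18rap (0.925 to 1.58). The 3 receptors thus differed by less than counting error in Th1, and in Th2 Il18r1 stood above both others. The edge between Il1rl1 and Il18r1 is approximate and lay inside the stretch of high Ezh2 in Th2. With the blocks moved 5 kb up, Ezh2 in Th2 was 1.16-fold over input at Il1rl1 and 1.88-fold at Il18r1. With the blocks moved 5 kb down, it was 1.49-fold and 1.68-fold. Against Il1r1, Il18r1 was 0.695 times in Th1 (0.566 to 0.854) and 1.18 times in Th2 (0.980 to 1.43), so the order of these 2 receptors was not the same in the 2 libraries.

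By the fold over input in Th2, the blocks ran from Il18r1 through Il1r1, Il1rl1, Il1r2 and Il1rl2 to Il18rap. Neighbours in this order had overlapping intervals. In Th1 the order was Il1r1, Il1r2, Il1rl2, Il18r1, Il1rl1 and Il18rap, again with overlap between neighbours. By the ratio of Th2 to Th1, Il18r1 came first at 2.18, then Il1rl1 at 1.73, Il18rap at 1.59, Il1rl2 at 1.30, Il1r1 at 1.28 and Il1r2 at 1.03. Of the 6 intervals of this ratio, 5 lay above 1, and for the Ezh2 positions alone 3 did so, those of Il1rl1, Il18r1 and Il18rap.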

How the data were processed

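Of the 6 ChIP-seq libraries, 5 were used; the Th2 control antibody library has no chromosome 1 here. The deposited values are read counts per distinct interval, one interval a line, with no strand and no normalization. The submitters' processing notes name CASAVA and the build mm9. Per the labels' protocols, fragments of 170 to 250 bp went through 18 PCR cycles and 36 sequencing cycles. For alignment settings and filters, the sources used here give nothing.

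Each interval was counted once, at its midpoint, in bins of 1 kb, and scaled by the positions on chromosomes 1 to 19 and X (Python 3.11.15, NumPy 2.4.6, SciPy 1.17.1, numba 0.67.0). Exact binomial and conditional exact tests were run on all bins or windows of the genome with Benjamini-Hochberg adjustment, and were tested on simulated data. PCR reads without molecular identifiers are not independent molecules. The members and lists were chosen with earlier results of these data known. All 6 members are named. Gene blocks were placed by hand, rounded to 1 kb, and no coordinates were converted between builds. Splitting the blocks into parts, the flanks, the gene pairs and the runs of windows were added after seeing the data. Other genes of the IL-1 and IL-18 pathway were not placed and were not analysed here. Alternatives were all reads, background scaling, other inputs, equal depth, 2 kb bins, other thresholds, moved blocks and moved windows.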

Additional observations from a re-analysis of the deposited data

Results flagged for a closer look

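The 10 kb window from 40530001 to 40540000 in the Il18r1 block had a fold over input in Th1 of 0.284 relative to Th2 (conditional exact test, adjusted p = 0.000149), so the Th1 and Th2 libraries differed by a test of the difference itself, which covers counting error between 1 library of each. Under the median ratio, all reads, background scaling and the Ezh2 positions alone the value lay between 0.284 and 0.377, with an adjusted p of at most 0.000258 by the exact tests. In windows of 5 kb its 2 parts gave 0.288 and 0.279 and were not called (conditional exact test, adjusted p = 0.103 and 0.180). The one called at 5 kb, from 40430001 to 40435000, between Il1rl2 and Il1rl1, had a value of 0.185 (0.0863 to 0.392, conditional exact test, adjusted p = 0.0262), where 0.00495% of all such windows were called. It held 17 Ezh2 and 66 input positions in Th1 and 63 and 27 in Th2. The inputs there differed 2.02-fold (1.27 to 3.29), and their part in the result was not tested.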

How the results depend on the processing

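Counts of called bins changed with the settings, while the ratios of Th1 to Th2 at Il18r1 (0.458) and Il18rap (0.628) stayed below 1 under each alternative run. The main count of 1 bin in Th1 became 19 with all reads (4.29% of tested bins, 3.83% in the genome), 18 with background scaling (totals taken only from 10 kb bins whose Ezh2 over input was under the median; 4.52%, 3.999%), 3 with the control antibody as background (1.11%, 1.49%), and 0 with no minimum (genome 0.463%) or with a fold of at least 4 and an adjusted p below 0.001 (genome 0.465%). The 4 bins in Th2 became 62 with all reads (14.0%, genome 5.83%), 25 with background scaling (6.35%, 3.59%), 7 with 2 kb bins (3.03%, 1.37%) and 0 with the strict thresholds (genome 0.625%). With all reads the Th1 control antibody gave 1 bin in the cluster and 19089 in the genome, against 20 in the genome with positions. Over the whole cluster, Ezh2 was 1.44-fold over input in Th1 and 1.81-fold in Th2 with background scaling, 1.13-fold and 1.15-fold with the input of the other cell type, and 1.06-fold and 1.21-fold with both inputs pooled; with the control antibody as background it was 1.15-fold in Th1. With background scaling the folds of the 6 blocks ran from 1.01 (Il18rap) to 1.74 (Il1r1) in Th1, and only the intervals of Il1rl1 and Il18rap held 1. In Th2 they ran from 1.58 (Il18rap) to 2.61 (Il18r1), and every interval lay above 1. For Th1 relative to Th2, the input of the other cell type gave 0.998 at Il1rl1 and 0.599 at Il18r1. At Il1r1 it gave 1.24 and at Il1rl2 1.22, with the direction turned. These values follow from the ratios of the Ezh2 positions alone and of the inputs, and are no separate check. Pooled inputs, which leave the ratio of the Ezh2 positions alone, gave 0.760 at Il1rl1. The single 10 kb window called in the cluster became 12 with all reads, where 10.4% of all windows were called, 3 with the Ezh2 positions alone (0.659%) and 2 with windows moved by 5 kb (0.0351%). With 5 kb windows 1 was called (0.00495%), but not at Il18r1. Moving the gene blocks by 5 kb left each ratio inside its main interval. Pooled inputs, moved windows and background scaling of the window test were chosen after seeing the data. No paired analysis was possible because there was 1 library a group. With 89 and 93 bins of the cluster under 10 positions, single bins were often too thin to test.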
